A study of Mus musculus with 10 samples.

Results

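The genes described here encode the proton pump that acidifies lysosomes, the cathepsin proteases that work inside them, legumain, and the LAMP proteins of the lysosomal membrane. They are the genes whose symbols match a fixed pattern, as 48 of the 40904 symbols in the mRNA tables did. Of these, 25 belong to the pump (symbols starting with Atp6v and a digit, or Atp6ap and a digit), 18 are cathepsins (Cts and a letter), 1 is Lgmn and 4 are Lamp genes. Each had 1 row in the tables. The mRNA came from primary cortical neurons of ICR mouse embryos (E14) on day 11 in culture, which had received AAV-Control or AAV-Gata1. AAV is an adeno-associated virus used to deliver a gene, and Gata1 encodes a zinc finger transcription factor best known from blood cell development. The promoter that drove Gata1 in the virus, the share of cells that took it up and the number of embryos behind a culture could not be taken from the sources used here. With 1 mRNA library per condition, the differences below were neither tested nor checked in replicates.

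Values are FPKM, sequenced fragments scaled to transcript length and to the mapped fragments of the library, as deposited by the authors. They are per length, so levels can be set side by side between genes. Summed FPKM was 476198 in the control and 476656 with Gata1, and the sequencing depth is unknown. The delivered gene, Gata1, stood at 0 FPKM with AAV-Control and 2.07 FPKM with AAV-Gata1. Differences are given as log2((Gata1 + 1)/(control + 1)) of the FPKM, here called the log2 ratio. A gene was compared where its mean over both libraries reached 1 FPKM. Of the 13740 genes at that level, 6222 (45.3%) were higher and 7518 (54.7%) lower in the Gata1 library, with a median log2 ratio of -0.013. Of the 48 members, 32 reached it.

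The vacuolar ATPase is a rotary pump. Its cytosolic V1 part splits ATP and turns a rotor, which drives protons through the membrane-bound V0 part into the lysosome. In neurons the same pump also acidifies synaptic vesicles, and the proton gradient powers their loading with transmitter. Cathepsins are made as inactive precursors that mature in the acid lumen. They break down proteins delivered by endocytosis and autophagy, and microglia, the macrophages of the brain, hold large amounts of several of them. Many lysosomal genes carry a short palindromic element, known as CLEAR, near their start. It contains an E-box with the letters CACGTG and is bound by TFEB and its relatives TFE3 and MITF.

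The E-boxes near the starts of these genes are shown first. This sequence feature occurs in some of the pump genes and some of the cathepsin genes, and it played no part in choosing the members. RefSeq promoters (GRCm38.p6, 250 bases before to 50 after an annotated start) were found for 37 of the 48 members. The letters CACGTG, which read the same on both strands, were in 10 of these 37 genes (27%), against 8.09% of all 27025 genes with such a promoter and 11.7% of those at a mean of 1 FPKM or more. All 10 were among the 24 promoter-matched members at that level (41.7%). The longer run TCACGTG, searched on both strands and containing the first, was in 8 members (21.6%), against 4.29% of all genes. At a mean of 1 FPKM or more it was in 8 of 24 members (33.3%), against 6.95% of genes. The palindrome TCACGTGA was in 5 members (13.5%), against 1.12% of all genes. At a mean of 1 FPKM or more it was in 5 of 24 members (20.8%), against 2.17% of genes. A gene with several annotated starts was counted if any of its windows held the letters. A match describes the letters in this window and is not evidence of binding.

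Stretches around these E-boxes are printed for the 8 members with TCACGTG, with each CACGTG in capitals. The window of Ctsd held 2, whose first bases lie at -245 and -98 from the start, and the stretch around the second is shown. They are joined by the 100 bases before the start of Ctss, the cathepsin gene with the highest log2 ratio, whose window held no CACGTG. All are written 5′ to 3′ on the strand of the gene, from RefSeq, build GRCm38.p6. Pump genes come first: Atp6v1a at chr16:44139345-44139430 (minus strand), Atp6v0b at chr4:117887310-117887405 (minus strand), Atp6v0d1 at chr8:105566045-105566107 (minus strand) and Atp6v0e at chr17:26676359-26676415 (plus strand).
Atp6v1a: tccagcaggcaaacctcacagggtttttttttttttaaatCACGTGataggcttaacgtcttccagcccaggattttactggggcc
Atp6v0b: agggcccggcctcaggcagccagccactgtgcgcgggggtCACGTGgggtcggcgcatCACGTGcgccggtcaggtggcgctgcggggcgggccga
Atp6v0d1: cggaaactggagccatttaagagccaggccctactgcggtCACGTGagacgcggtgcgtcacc
Atp6v0e: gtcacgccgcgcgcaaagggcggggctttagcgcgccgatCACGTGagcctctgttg

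The proteases and Lamp1 follow: Ctsa at chr2:164833721-164833792 (plus strand), Ctsd at chr7:142387880-142387965 (minus strand), Ctss at chr3:95526686-95526785 (plus strand), Lgmn at chr12:102439096-102439181 (minus strand) and Lamp1 at chr8:13159060-13159180 (plus strand).
Ctsa: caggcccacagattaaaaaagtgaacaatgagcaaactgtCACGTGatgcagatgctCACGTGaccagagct
Ctsd: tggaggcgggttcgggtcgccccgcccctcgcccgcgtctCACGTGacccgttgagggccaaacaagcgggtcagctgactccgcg
Ctss: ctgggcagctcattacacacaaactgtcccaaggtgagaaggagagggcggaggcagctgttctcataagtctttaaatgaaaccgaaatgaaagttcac
Lgmn: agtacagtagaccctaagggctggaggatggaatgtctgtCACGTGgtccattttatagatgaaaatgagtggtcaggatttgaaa
Lamp1: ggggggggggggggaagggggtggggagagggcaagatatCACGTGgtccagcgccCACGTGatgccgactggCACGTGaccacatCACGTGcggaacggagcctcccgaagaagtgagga

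Lamp1 held 4 E-boxes, which began 61, 45, 28 and 15 bases before its start. Ctsa and Atp6v0b each held 2 within 40 bases of the start. The 5 genes with the full palindrome were Atp6v1a, Atp6v0d1, Atp6v0e, Ctsa and Ctsd. Their log2 ratios were 0.0088, 0.013, 0.016, 0.066 and 0.22, so they included pump genes near 0 as well as the second highest of all 32 members. By group, CACGTG was in 4 of the 18 pump genes and in 4 of the 14 cathepsin genes with a promoter. The other cathepsin genes with it were Ctsf and Ctsl, each with the 6 letters only.

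**Figure D1:**
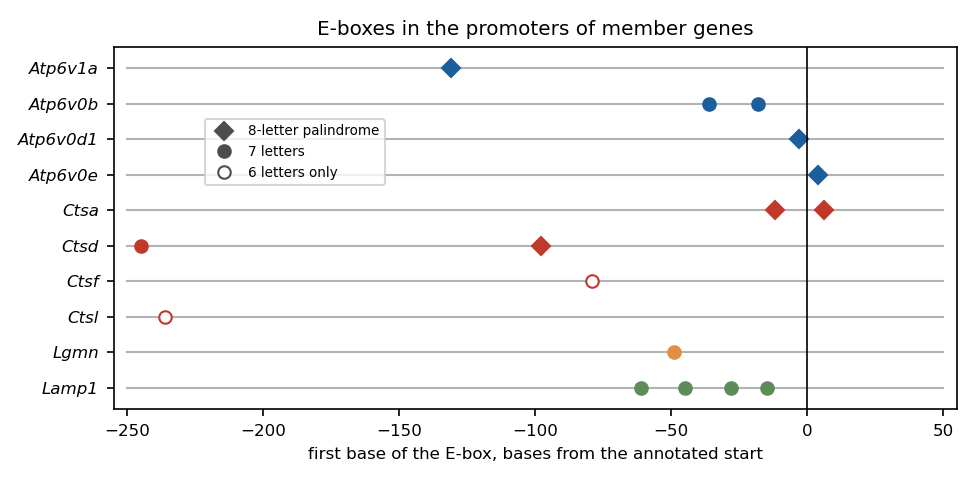
Position of each CACGTG in the promoters of the 10 members that hold it, in bases from the annotated start (vertical line), with the searched window as a grey line. Diamonds mark the 8-letter palindrome, filled circles 7 letters and open circles 6 letters only, in blue for pump, red for cathepsin, orange for legumain and green for LAMP genes. The 4 E-boxes of Lamp1 lie within 61 bases before the start.

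Some of the member genes were among the most abundant mRNAs of these cultures. Ctsd, which encodes the aspartic protease cathepsin D, stood at 990.4 FPKM with AAV-Control and 1154 FPKM with AAV-Gata1, ranks 25 and 19 among all symbols. Lamp1, the main glycoprotein of the lysosomal membrane, ranked 78 and 84. Atp6v0c, the proteolipid that forms most of the proton-carrying ring of V0, ranked 110 and 113. Of the 32 members compared, 29 had a mean of at least 20 FPKM, against 4972 of all 13740 genes compared. The 19 pump genes compared summed to 2340 FPKM with AAV-Control and 2332 FPKM with AAV-Gata1, a difference of -0.315%. The 10 cathepsin genes compared summed to 1941 and 2175 FPKM, which is 12.05% more in the Gata1 library. Ctsd alone was 16.5% higher, while the sum of the 8 cysteine cathepsins was 7.78% higher and the serine cathepsin Ctsa 4.73% higher. Ctsd, Ctsl and Ctsb gave 84.6% of the cathepsin sum with AAV-Control and 85.4% with AAV-Gata1.

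**Figure D2:**
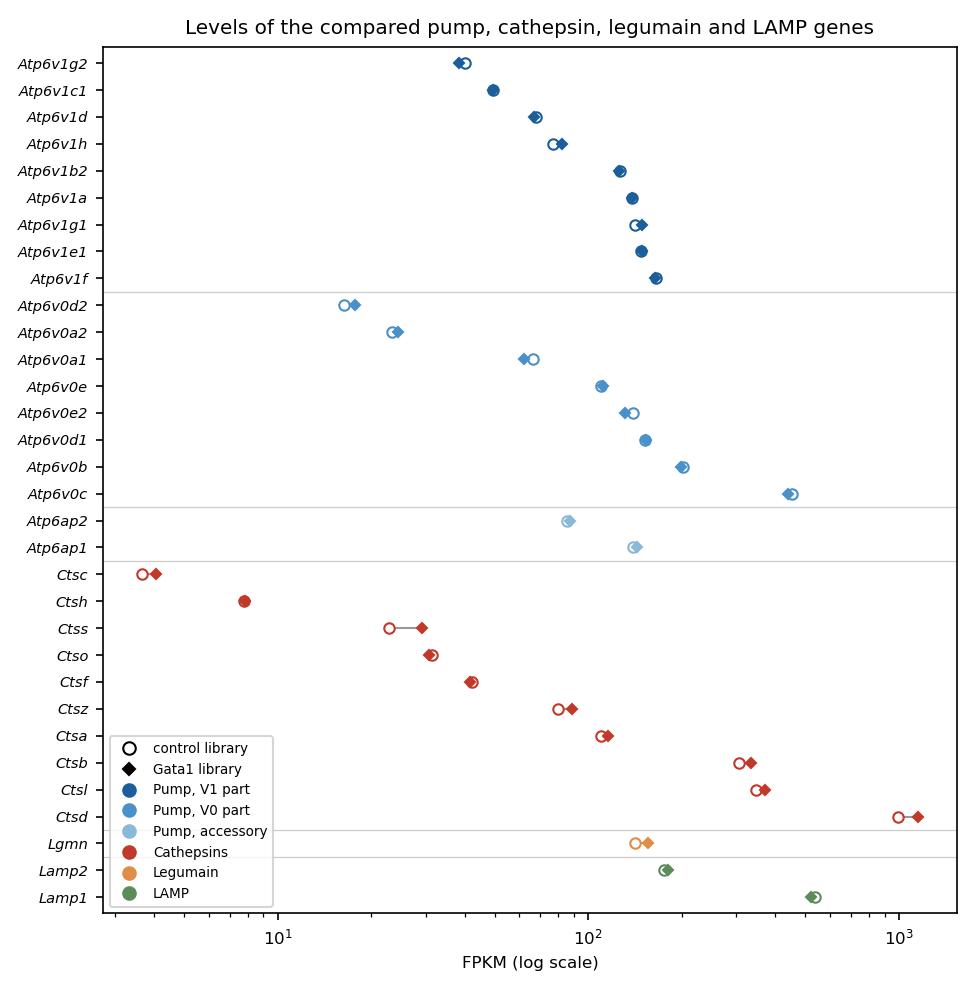
FPKM of the 32 members compared, on a log scale, in the control library (open circles) and the Gata1 library (diamonds), grouped and ordered by the control level. The cathepsins span from Ctsc at 3.65 FPKM to Ctsd at 990.4 FPKM in the control, while the 9 V1 subunit genes lie between 40.2 and 165 FPKM.

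In the V1 part, 6 of the 9 genes were at nearly the same level in both libraries. Atp6v1a, the catalytic subunit, stood at 138 FPKM with AAV-Control and 139 FPKM with AAV-Gata1. Atp6v1b2, its partner in the ATP-splitting head, stood at 127 and 125 FPKM. The rotor genes Atp6v1d (68.1 and 67.0 FPKM) and Atp6v1f (165 and 164 FPKM) and the stalk genes Atp6v1e1 (148 and 148 FPKM) and Atp6v1c1 (49.3 and 49.3 FPKM) were as close. These 6 genes, the nearest to 0 in V1, had log2 ratios between -0.023 and 0.0088. The G subunit genes Atp6v1g1 (0.065) and Atp6v1g2 (-0.063), given below, were further from 0. Atp6v1h, a regulatory subunit that couples V1 to V0, was furthest from 0 in this part, at 77.1 and 82.1 FPKM (log2 ratio 0.089). Over the 9 V1 genes 4 were higher and 5 lower, with a median log2 ratio of -0.0020.

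The V0 part had 4 genes higher and 4 lower, with a median of -0.0037. Atp6v0c stood at 451 FPKM with AAV-Control and 440.2 FPKM with AAV-Gata1, and Atp6v0b, a second proteolipid of the ring, at 201 and 199 FPKM. Atp6v0d1, the subunit that links the ring to the central rotor, stood at 152 and 153 FPKM. The accessory genes Atp6ap1 (139.5 and 144 FPKM) and Atp6ap2, known as the prorenin receptor (85.5 and 87.3 FPKM), had log2 ratios of 0.046 and 0.030. RefSeq also lists pseudogenes of Atp6v0c. Whether their reads went to the parent gene is unknown here.

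In the a, e and G subunits, expressed isoforms of the same subunit differed in sign, and they also did so with centred ratios. Atp6v0a1, the a subunit isoform typical of neurons and synaptic vesicles, stood at 66.4 FPKM with AAV-Control and 62.3 FPKM with AAV-Gata1 (log2 ratio -0.092, the lowest of all 32 members). Atp6v0a2, the Golgi and endosome isoform, stood at 23.4 and 24.4 FPKM (0.056). Tcirg1, the a3 isoform known from osteoclasts and macrophages, is outside the symbol pattern and stood at 17.1 and 17.4 FPKM. Atp6v1g2, the G isoform found mainly in neurons, stood at 40.2 and 38.4 FPKM (-0.063). Its widespread counterpart Atp6v1g1 stood at 142 and 148 FPKM (0.065). Of the small e subunits, Atp6v0e2 stood at 139 and 132 FPKM (-0.079) and Atp6v0e at 110.1 and 111 FPKM (0.016). Atp6v0d2, the d isoform known from osteoclasts and macrophages, stood at 16.4 and 17.7 FPKM (0.11, the highest of the pump genes).

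In the a subunit, Atp6v0a1 held 62.1% of the subunit's FPKM with AAV-Control and 59.9% with AAV-Gata1. The share of Atp6v1g2 in the G subunit was 22.1% and 20.6%. That of Atp6v0e2 in the e subunit was 55.8% and 54.2%, and that of Atp6v0d2 in the d subunit 9.71% and 10.4%. These shares moved by no more than 2.23 percentage points. For the B, C and E subunits 1 isoform made up at least 99.65% of the sum in each library, since Atp6v1b1, Atp6v1c2 and Atp6v1e2 were under 0.2 FPKM in both.

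**Figure D3:**
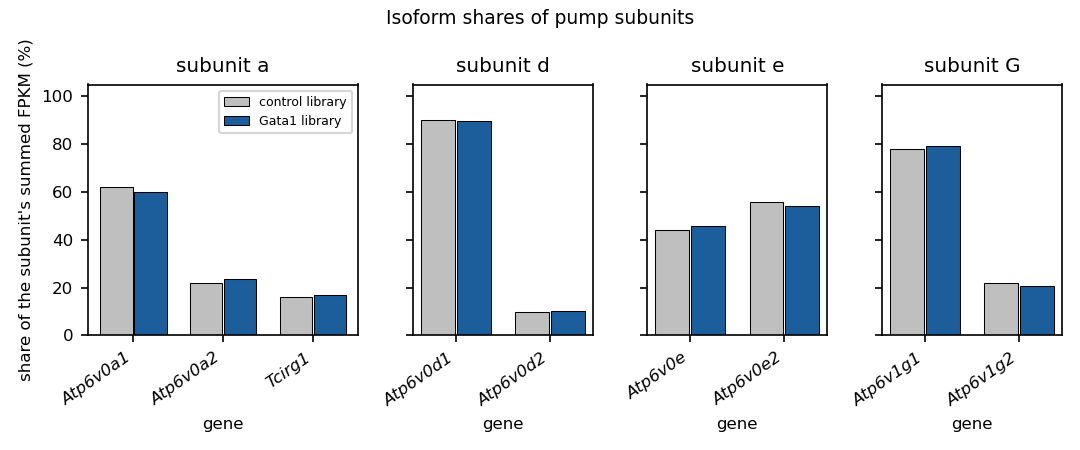
Share of each isoform in the summed FPKM of its pump subunit, in percent, in the control (grey) and Gata1 (blue) library, 1 library each. In subunit a the neuronal isoform Atp6v0a1 is at 62.1% and 59.9%, and in subunit G Atp6v1g2 is at 22.1% and 20.6%.

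Over the whole pump, 10 of the 19 genes compared were higher and 9 lower in the Gata1 library, against 45.3% higher and 54.7% lower among all genes, and with ratios centred on the median of all genes the split was 12 and 7. The median log2 ratio was 0.0039. None of the 19 was 1.1-fold apart in either direction. For all genes compared, these shares were 10.7% on the higher and 13.7% on the lower side. High-level genes vary less: at a mean of 20 FPKM or more, a limit added after the data were seen, they were 5.51% and 7.00%.

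The cathepsins were mostly higher. Of the 10 cathepsin genes compared, 8 were higher and 2 lower in the Gata1 library, also with centred ratios, with a median log2 ratio of 0.11 (7.77% higher). At least 1.1-fold higher were 3 of the 10, against 10.7% of all genes and 5.51% of those at 20 FPKM or more. None was 1.1-fold lower, against 13.7% and 7.00%. Ctss alone was past 1.2-fold on the higher side, against 3.29% of all genes and 0.965% of those at 20 FPKM or more. No cathepsin was past it on the lower side, against 3.98% of all genes and 1.15% of the high-level ones. None of the 32 members compared was 2-fold apart, against 0.233% of all genes higher and 0.284% lower by that much.

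Ctss encodes a cysteine protease that stays active at neutral pH and trims the invariant chain in antigen presentation. It stood at 22.8 FPKM with AAV-Control and 29.1 FPKM with AAV-Gata1, a log2 ratio of 0.34 (27.5% higher in FPKM) and the highest of the 32 members. Ctsd followed at 0.22 (16.5% higher). Ctsz, a carboxypeptidase, stood at 79.8 and 88.8 FPKM (0.15). Ctsb, an abundant cysteine protease, stood at 306 and 334 FPKM (0.12), and Ctsc, a dipeptidyl peptidase that activates serine proteases of immune cells, at 3.65 and 4.06 FPKM (0.12). With a pseudocount of 0.1 the ratio of Ctsc was 0.15, and 4 cathepsins were then at least 1.1-fold higher.

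The remaining cathepsins lay nearer 0. Ctsl, a second abundant cysteine protease, stood at 346 FPKM with AAV-Control and 370.2 FPKM with AAV-Gata1 (0.095). Ctsa, a serine carboxypeptidase that also protects lysosomal beta-galactosidase and neuraminidase, stood at 110.2 and 115.4 FPKM (0.066). Ctsh, an aminopeptidase, was at 7.82 and 7.87 FPKM (0.0079). The 2 lower genes were the cysteine protease genes Ctsf (42.3 and 41.5 FPKM, -0.025) and Ctso (31.5 and 30.8 FPKM, -0.031). Lgmn encodes legumain, which cleaves after asparagine and processes several cathepsins. It stood at 142 and 156 FPKM (0.14, at least 1.1-fold higher), the fourth highest ratio of the 32 members.

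Set against each other, the cathepsin median exceeded the pump median by 0.10 on the log2 scale. The ranges overlapped, with pump genes between -0.092 and 0.11 and cathepsins between -0.031 and 0.34. In 5 of the 10 cathepsins, namely Ctss, Ctsd, Ctsz, Ctsb and Ctsc, the log2 ratio was above that of every pump gene. No cathepsin was below every pump gene. Ctsb (0.123) and Ctsc (0.121) were only just above the highest pump gene, Atp6v0d2 (0.109). The share of all genes above that ratio was not counted, but at the higher limit of 1.1-fold it was 10.7%. The summed cathepsin FPKM was 0.830 times the summed pump FPKM with AAV-Control and 0.933 times in the Gata1 library. The LAMP genes did not share a direction, with Lamp1 at 537 and 520.5 FPKM (-0.046) and Lamp2, which is also needed for autophagy, at 176 and 181 FPKM (0.040).

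**Figure D4:**
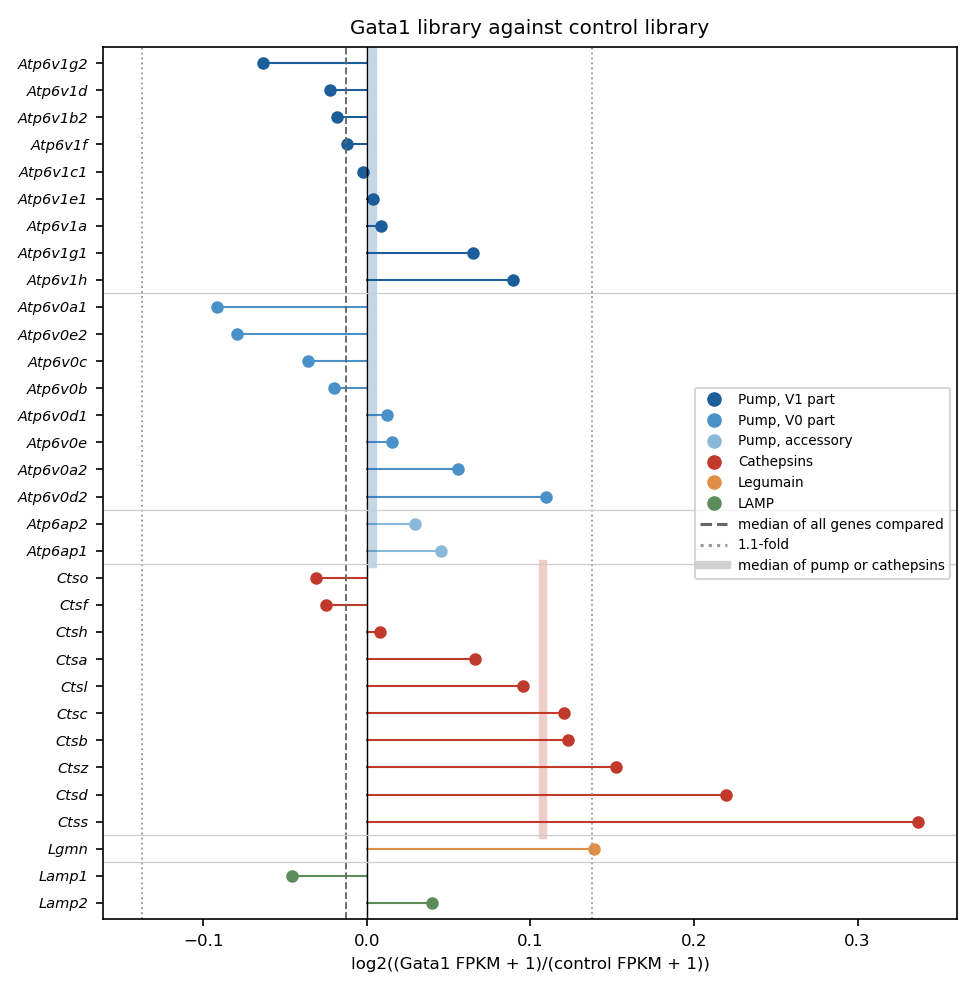
Log2 ratio of each of the 32 members compared, by group, with the median of all genes compared (dashed), 1.1-fold limits (dotted) and broad bars at the medians of pump (0.0039) and cathepsins (0.11). Ctss, Ctsd, Ctsz and Lgmn lie past the upper 1.1-fold limit, and no pump gene lies past either.

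Of the 32 members compared, 11 overlap another gene in RefSeq, where fragments can be assigned to either unless strand is used. The mRNA kit keeps strand, but whether the counting used it is unknown here. Ctsa overlaps Neurl2 and Pltp, Ctsb overlaps Fdft1, Ctsz overlaps Nelfcd, and Ctss overlaps a pseudogene, Hmgb1-ps5. Ctsd, Ctsc, Ctsl and Lgmn overlap none.

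The other 16 members were under a mean of 1 FPKM and were not compared, and 6 of them were listed at 0 in both libraries. These 6 were Atp6v1e2, Atp6v1g3 and the placental cathepsins Ctsj, Ctsm, Ctsq and Ctsr. Ctsk, the osteoclast cathepsin, stood at 0.0579 FPKM with AAV-Control and 0.0627 FPKM with AAV-Gata1. Ctsg, a neutrophil serine protease, stood at 0.0895 and 0.101 FPKM, Ctsw, of cytotoxic lymphocytes, at 0.0303 and 0.0685 FPKM, and Ctse at 0.318 and 0.339 FPKM. The kidney isoforms Atp6v1b1 and Atp6v0a4 were under 0.06 FPKM in both, and Atp6v1c2 was at 0.172 and 0.0674 FPKM. Atp6ap1l stood at 0.538 and 0.748 FPKM. Lamp3, a marker of mature dendritic cells, was listed at 0 and 0.0133 FPKM, while Lamp5, a LAMP protein of neurons, stood at 0.609 and 0.0741 FPKM.

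Other lysosomal genes are given in lists chosen by function, by their counts and medians, and no difference between a list and the cathepsins was tested. Of 17 lysosomal glycosidases 11 were higher and 6 lower, at a median log2 ratio of 0.042. Past 1.1-fold were 4 on the higher side and 1 on the lower, against 10.7% and 13.7% of all genes compared. Gusb, beta-glucuronidase, stood at 23.3 and 26.2 FPKM, Gla at 7.76 and 8.79 FPKM and Idua at 7.32 and 6.29 FPKM. Of 6 sulfatase genes with their activator Sumf1, 2 were higher and 4 lower (median -0.040). Among 13 other hydrolases 9 were higher and 4 lower (median 0.027), with the acid lipase gene Lipa at 28.9 and 31.9 FPKM. Sphingolipid activators and lipid transfer genes had a median of 0.0027, with 5 higher and 2 lower.

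Of 19 lysosomal membrane genes 8 were higher and 11 lower, at a median of -0.014. The 4 furthest from 0 were Laptm5 (29.2 and 34.0 FPKM) and Cd68 (48.1 and 55.8 FPKM), both known from myeloid cells, the tetraspanin gene Cd63 (464 and 519 FPKM), and on the lower side Tmem192 (16.7 and 14.9 FPKM). At least 1.1-fold higher were 3 of the 19, and 2 were at least 1.1-fold lower, against 10.7% and 13.7% of all genes compared. Sorting genes, such as those of the mannose 6-phosphate pathway, had 7 higher and 4 lower (median 0.021), with the receptor gene M6pr at 45.8 and 49.3 FPKM. Of 13 pump assembly and regulation genes, Tcirg1 included, 8 were higher and 5 lower (median 0.026). Dmxl2 and Rogdi, whose products belong to the complex that reassembles V1 with V0, stood at 22.1 and 19.6 FPKM and at 39.6 and 37.0 FPKM. Of 4 protease inhibitors compared, 3 were higher and 1 lower (median 0.075). The serpin genes Serpinb6a (36.6 and 41.4 FPKM) and Serpina3n (16.0 and 17.8 FPKM) were at least 1.1-fold higher, against 10.7% of all genes compared. None of the 4 was 1.1-fold lower, against 13.7%. Cst3, the secreted cathepsin inhibitor cystatin C, was far more abundant than any cathepsin, at 3514 and 3381 FPKM, and the cytosolic inhibitor gene Cstb stood at 85.3 and 85.5 FPKM.

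The factors that bind the CLEAR element did not share a direction. Tfe3 stood at 28.6 FPKM with AAV-Control and 22.5 FPKM with AAV-Gata1, a log2 ratio of -0.33 and the lowest of its list. Tfeb stood at 8.67 and 7.92 FPKM (-0.12). Mitf, the only one of the 3 compared that was higher, was close to the 1 FPKM limit, at 1.505 and 1.76 FPKM (0.14). Tfec was under 1 FPKM in both. The list also held mTORC1, Rag and Ragulator genes that control these factors, and other regulatory genes outside those groups. Of its 15 genes compared, 10 were higher and 5 lower, at a median of 0.022.

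Markers of cell types are given beside these genes. Neuron markers were at 1 FPKM or more for all 14 analysed here, as the label of the cultures implies. In the Gata1 library 13 of the 14 were lower (median -0.079), against 54.7% of all genes compared, with Syn1 at 34.1 and 30.8 FPKM. At least 1.1-fold lower were 4 of the 14, against 13.7% of all genes compared. Microglia markers were also present. All 13 of the 17 that reached 1 FPKM were higher, at a median of 0.21, against 45.3% of all genes compared. At least 1.1-fold higher were 9 of the 13, against 10.7% of all genes compared. The 13 summed to 573 FPKM with AAV-Control and 675 FPKM with AAV-Gata1 (17.9% more). Fcrls stood at 18.8 and 24.99 FPKM, Cx3cr1 at 14.6 and 18.2 FPKM, Trem2 at 43.7 and 53.4 FPKM and C1qb at 50.5 and 60.7 FPKM. Of the markers of mature resting microglia in the list, Siglech was listed at 0 in both libraries, and Tmem119, P2ry12 and P2ry13 were under 0.3 FPKM in both. The log2 ratios of the 13 ran from 0.035 to 0.39, beside 0.34 for Ctss and 0.22 for Ctsd, and the part of microglia in the cathepsin values was not tested. In bulk RNA, more cells of a type and more RNA per cell cannot be told apart.

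Astrocyte markers had 4 higher and 6 lower of 10 (median -0.027), summing to 2513 and 2502 FPKM. Oligodendrocyte lineage markers had 3 higher and 7 lower of 10 (median -0.087), summing to 306 and 292 FPKM. Among all genes compared, 45.3% were higher and 54.7% lower. At least 1.1-fold lower were 1 astrocyte and 4 oligodendrocyte lineage markers, against 13.7% of all genes compared. None of either list was 1.1-fold higher, against 10.7%. The part of these markers in the differences of the lysosomal genes was not tested either.

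**Figure D5:**
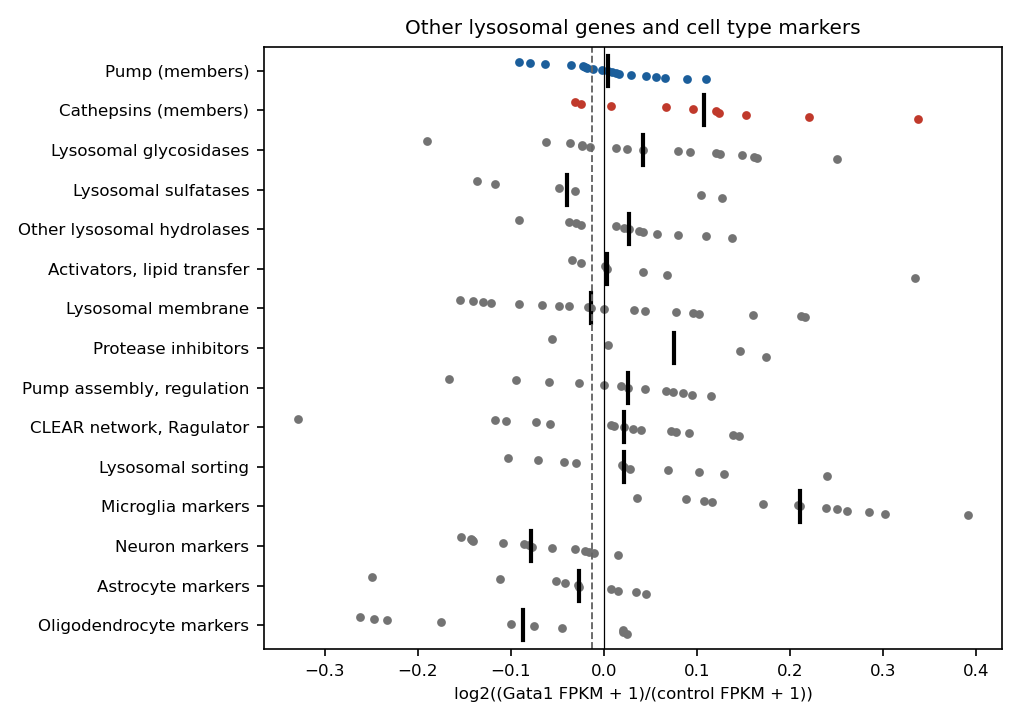
Log2 ratio of every compared gene (points) in the pump, the cathepsins, the other lysosomal lists and the cell type marker lists, with each list's median (black bar) and the median of all genes compared (dashed). The median of the microglia markers is 0.21, that of the cathepsins 0.11 and that of the neuron markers -0.079.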

How the data were processed

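Per the file headers, the mRNA values deposited by the authors are FPKM, 1 column per library. Per the submitters' processing notes, the tools included Cufflinks 2.1.1, Cuffdiff 2.1.1 and TopHat2 2.1.1, and the builds mm9 and mm10, without their roles. Per the labels' protocols the kit was TruSeq Stranded mRNA. Of 40993 rows, 6 without a symbol (0.0123% and 0.0113% of the FPKM) were left out. A symbol with several rows kept the one with the highest mean. For 1274 genes detected in each library below 0.1 FPKM, at most 43 had ratios within 0.02 (log2) of each other, so no whole-fragment steps and no depth were recovered. Log2 ratios used a pseudocount of 1 FPKM and a minimum mean of 1 FPKM, in Python 3.11.15 with pandas 2.3.3, with counting checked on made-up tables. With 1 library per condition, counts and medians are set beside all genes in place of a test. The members and lists were chosen with earlier results of these data known. All members are named, and from each list up to 4 genes furthest from 0; Tcirg1, Syn1 and the low markers were picked for their roles or after their values were seen. Some genes that this rule names are not reported here. Small RNA and chromatin samples were not used here.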

Additional observations from a re-analysis of the deposited data

How the results depend on the processing

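The alternatives were a pseudocount of 0.1, a minimum mean of 5 FPKM or none, summed rows of a symbol, centred ratios, and means in place of medians. Each member had 1 row, so summing rows could not change its values. Centring shifts all ratios alike, so it could not change the distance between the 2 medians. With all members above 0 FPKM in both libraries, the cathepsin median was 0.059 over 14 genes and its distance from the pump median 0.055, since 4 genes near 0 FPKM join. The pump median stayed between 0.0039 and 0.017 under every alternative, and the cathepsin median between 0.095 and 0.12 under the others. Centring adds 0.013 to every ratio and turns Atp6v1c1 to 0.011 and Atp6v1f to 0.00077. With the pseudocount of 0.1 the ratio of Ctsc moved to 0.15. No other member moved by more than 0.02 under these 2 settings. No paired analysis was possible because each condition had 1 library. Depth is unknown, so no counting interval can be given. Values under 1 FPKM, such as those of Lamp5, may rest on few fragments.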

Other observations

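Letters of the GATA motif were also counted in the RefSeq promoters, as the letters GATA with A or T before and A or G after, on either strand. They were in 12 of the 37 members with a promoter (32.4%), against 33.0% of all genes with one. Among members at a mean of 1 FPKM or more they were in 7 of 24 (29.2%), against 21.0% of all genes at that level. The 7 were Atp6v1a, Atp6v0c, Atp6v0e, Atp6v0e2, Ctsf, Ctsz and Lgmn. Their log2 ratios ran from -0.079 for Atp6v0e2 to 0.15 for Ctsz. The promoters of Ctss and Ctsd, the members with the highest ratios, did not hold these letters, which says nothing of the factor.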
